A study of Mus musculus with 16 samples.

Results

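The genes described here are 10 genes of the Hippo pathway: the transcriptional coactivators YAP (Yap1) and TAZ (Wwtr1), their DNA-binding partner Tead1, and genes known as direct targets or regulators of this complex. They were chosen by symbol from the deposited count table, with Cyr61 and Ctgf under those older names (now Ccn1 and Ccn2). All 10 symbols were found among the 24982 entries of the table, and all 10 were among the 13775 genes that passed the filter on low counts.

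Left ventricles of 16 C57BL/6 mice were sequenced as total RNA, 1 library per mouse. The knockout mice were Tln2-null and had Tln1 deleted in cardiac fibroblasts (CF), and the comparison mice were Tln2-null only, each with 8 mice (4 females and 4 males). Talins, the products of Tln1 and Tln2, link integrins to the actin cytoskeleton. Every mouse of both groups was labelled Tln2-null, received tamoxifen injections over 5 days. After 2 further weeks each was given angiotensin II (AngII), a hormone that raises blood pressure, by osmotic pump for 8 weeks. The sources used here do not name the driver of the fibroblast deletion, the deleted exons or the age of the mice, and no mouse without AngII and none with intact Tln2 was analysed here.

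The Hippo kinases, with LATS at the end of the cascade, phosphorylate YAP and TAZ and keep them in the cytoplasm. When the cascade is less active, or when cells spread on a stiff matrix and pull on it through integrins, YAP and TAZ enter the nucleus and act with TEAD factors on genes such as Ctgf and Cyr61. In the heart, YAP is known for cardiomyocyte growth before birth, and in fibroblasts YAP and TAZ are known for their part in matrix production. This control is on protein location, so transcript levels of Yap1 and Wwtr1 do not measure the activity of the complex.

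Library totals ran from 11161766 to 19221673 counts. Tln1 ranged from 220.9 to 322.8 CPM (counts per library, scaled to a common total) in knockout and from 250.7 to 322.4 CPM in Tln2-null ventricles, and Tln2 from 62.39 to 70.43 CPM in knockout and from 55.57 to 76.84 CPM in Tln2-null ventricles. Whole-gene counts of whole tissue check little of either deletion. All 10 cardiomyocyte markers, such as Myh6 and Myl2, were measured, with a summed level of 46890 to 56310 CPM in knockout and 48120 to 54170 CPM in Tln2-null ventricles. Some libraries stood apart. Replicate 8 of both genotypes held the clock gene Arntl at 27.14 CPM (knockout) and 28.42 CPM (Tln2-null), against 3.661 to 8.436 CPM in the other 14. Tln2-null replicate 5 held the heat shock gene Hspa1a at 85.93 CPM, against 2.882 to 8.909 CPM in the other 15. In 4 females, 3 knockout and 1 Tln2-null, Y-linked counts exceeded 1 percent of the male mean. The labels do not say whether mice were littermates or processed together.

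TEAD factors bind the letters CATTCC, which read GGAATG on the other strand. The RefSeq promoter table for GRCm38.p6 covers 250 bases before to 50 bases after each listed start, and 8 of the 10 genes were in it. Tead1 and Ctgf had no entry. A listed start need not be the outer end of the gene. A match on either strand was found for 7 of these 8 (all but Amotl1). This compares with 16.6 percent of the 27025 genes and 14.7 percent of the 32851 start sites in the table. For Amotl1 (minus strand) the only stretch searched, chr9:14614951-14615250, lies inside the gene (14541966 to 14662974). The bases before the outer end of Amotl1 were not searched. The 10 genes were chosen as known pathway genes, so this count is a description of them. It does not show that a factor is bound. Of 2 listed starts, Lats2 had no match at the second. At the first it had its match 4 bases after the start. The other 6 genes had theirs before a listed start. These windows are shown because the letters before that start differ in place and orientation between genes. Each has up to 20 bases on each side and the matched letters in capitals.
Yap1: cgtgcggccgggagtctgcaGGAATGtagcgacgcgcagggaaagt
Wwtr1: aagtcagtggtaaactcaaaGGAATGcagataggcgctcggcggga
Ajuba: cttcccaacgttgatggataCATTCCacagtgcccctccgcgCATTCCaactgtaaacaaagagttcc
Amotl2: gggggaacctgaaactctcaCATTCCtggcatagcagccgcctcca
Axl: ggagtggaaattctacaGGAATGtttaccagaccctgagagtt
Cyr61: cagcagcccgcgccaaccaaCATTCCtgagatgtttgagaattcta

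Each window runs 5′ to 3′ on the strand of its gene. They lie at chr9:8004712-8004757 (Yap1, minus strand), chr3:57576021-57576066 (Wwtr1, minus), chr14:54577800-54577867 (Ajuba, minus), chr9:102717719-102717764 (Amotl2, plus), chr7:25788941-25788983 (Axl, minus) and chr3:145650063-145650108 (Cyr61, minus) of GRCm38.p6. Counted from the listed start, the matches began at position -141 in Yap1 and -136 in Wwtr1 (the first of its 2 listed starts). They began at -186 and -164 in Ajuba, -65 in Amotl2, -233 in Axl and -103 in Cyr61. In Yap1, Lats2, Amotl1, Amotl2 and Axl the listed start lay inside the gene bounds given below. The Amotl2 window itself lay inside that gene (102717091 to 102733418). Ajuba was the only gene of the 8 with a pair of matches.

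The effectors came first by role. Yap1 (chromosome 9, 7931999 to 8004638) had 133.6, 151.0 and 166.6 CPM as the lowest, median and highest value in knockout ventricles, against 142.6, 151.1 and 158.1 CPM in Tln2-null ventricles. The knockout range enclosed that of the Tln2-null mice, and the log2 fold change was -0.01 ± 0.05 (SE; edgeR adjusted p = 0.994). Wwtr1 (chromosome 3, 57455644 to 57575910) had 95.41, 111.3 and 129.6 CPM in knockout ventricles, against 106.8, 110.3 and 128.1 CPM in Tln2-null ventricles. Here 3 knockout mice lay below the lowest Tln2-null mouse and 1 lay above the highest, and the log2 fold change was -0.03 ± 0.06 (adjusted p = 0.974). Tead1, whose product carries YAP and TAZ to DNA (chromosome 7, 112679356 to 112906784), had 203.0, 230.9 and 254.3 CPM in knockout ventricles, against 208.0, 221.8 and 271.9 CPM in Tln2-null ventricles. The lowest mouse was a knockout and the highest a Tln2-null mouse, and the log2 fold change was 0.03 ± 0.06 (adjusted p = 0.972). These 3 genes had the narrowest intervals of the 10. With 2 SE on each side, the interval of the log2 fold change ran from -0.104 to 0.082 for Yap1, from -0.144 to 0.089 for Wwtr1 and from -0.085 to 0.148 for Tead1.

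The negative regulators and adaptors followed. Lats2, which encodes a kinase that phosphorylates YAP and TAZ and is also known as a target of them (chromosome 14, 57689662 to 57746212), had 43.4, 55.24 and 62.12 CPM in knockout ventricles, against 42.06, 53.14 and 63.92 CPM in Tln2-null ventricles. The Tln2-null range enclosed that of the knockout, and the log2 fold change was 0.01 ± 0.09 (adjusted p = 0.995). Ajuba, which encodes a LIM-domain protein that binds LATS kinases (chromosome 14, 54567469 to 54577661), had 8.571, 9.563 and 12.34 CPM in knockout ventricles, against 8.388, 11.15 and 12.28 CPM in Tln2-null ventricles. It rested on the fewest counts of the 10 genes, 96 to 222 per library, for which counting error alone is 6.71 to 10.2 percent, and its log2 fold change was -0.09 ± 0.10 (adjusted p = 0.946). Amotl1 and Amotl2 encode angiomotin-like proteins, which hold YAP at cell junctions and on actin. Amotl1 (chromosome 9, 14541966 to 14662974) had 119.9, 144.1 and 160.7 CPM in knockout ventricles, against 122.3, 140.0 and 166.0 CPM in Tln2-null ventricles (log2 fold change -0.01 ± 0.08, adjusted p = 0.997). Amotl2 (chromosome 9, 102717091 to 102733418) had 67.85, 95.56 and 111.2 CPM in knockout ventricles, against 59.88, 81.76 and 115.6 CPM in Tln2-null ventricles. Only 1 knockout mouse lay below the Tln2-null mean, yet the lowest and the highest of all 16 mice were both Tln2-null, and the log2 fold change of 0.14 ± 0.12 did not pass (adjusted p = 0.942).

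**Figure D1:**
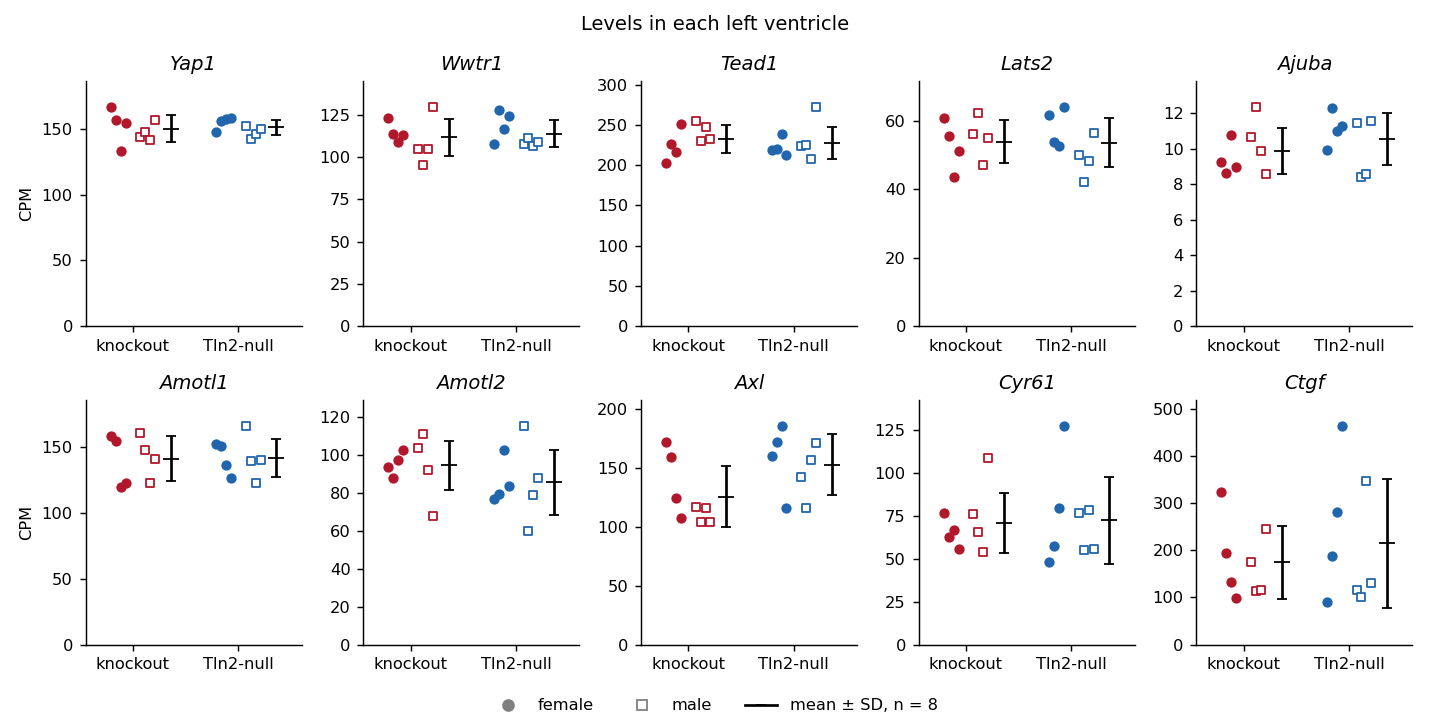
CPM of the 10 genes in each left ventricle, knockout at the left and Tln2-null at the right of each panel; filled circles are females, open squares males, and bars the mean ± SD (n = 8). The groups overlap in every panel, Yap1, Wwtr1 and Tead1 vary little, and Ctgf runs from 89.21 to 463.7 CPM.

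The targets with known roles outside the cell varied more. Axl, which encodes a receptor tyrosine kinase for the ligand GAS6 (chromosome 7, 25756500 to 25788924), had 104.1, 116.4 and 172.2 CPM in knockout ventricles, against 116.1, 158.7 and 186.1 CPM in Tln2-null ventricles. By mouse, knockout females had 107.9, 124.4, 159.4 and 172.2 CPM and knockout males 104.1, 104.5, 115.8 and 116.9 CPM. Tln2-null females had 116.2, 160.5, 172.6 and 186.1 CPM and Tln2-null males 116.1, 142.2, 157.0 and 171.3 CPM. Thus 4 knockout mice lay below every Tln2-null mouse and 2 Tln2-null mice above every knockout mouse. The means were 125.7 ± 25.9 CPM in knockout and 152.8 ± 26.0 CPM in Tln2-null ventricles (SD, n = 8 each). The log2 fold change of -0.29 ± 0.11 had the lowest p of the 10 genes but did not pass over all genes (edgeR adjusted p = 0.904). Of all genes tested, 1.87 percent had a smaller p.

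Cyr61 and Ctgf encode secreted matricellular proteins of the CCN family and are widely used as readouts of YAP and TAZ. Cyr61 (chromosome 3, 145646971 to 145649985) had 54.25, 66.34 and 108.7 CPM in knockout ventricles, against 47.93, 66.94 and 127.7 CPM in Tln2-null ventricles. The medians nearly coincided and the highest value of each genotype was that of replicate 8 (log2 fold change -0.03 ± 0.18, adjusted p = 0.995). Ctgf (chromosome 10, 24595442 to 24598683) had 97.69, 132.6, 194.7 and 322.5 CPM in knockout females and 113.7, 115.0, 175.4 and 245.0 CPM in knockout males. Tln2-null females had 89.21, 188.3, 280.6 and 463.7 CPM and Tln2-null males 100.8, 116.1, 131.1 and 346.1 CPM. The lowest and the highest mouse were both Tln2-null females, so the range of the Tln2-null mice enclosed that of the knockout. The means were 174.5 ± 77.6 CPM in knockout and 214.5 ± 136.0 CPM in Tln2-null ventricles (SD, n = 8 each), with a log2 fold change of -0.27 ± 0.33 (adjusted p = 0.953). The 2 SE interval, -0.935 to 0.386, was the widest of the 10. It rested on few libraries: without Tln2-null replicate 5 the log2 fold change of Ctgf was -0.03, and without Tln2-null replicate 8 it was -0.05. Without the 4 females with Y-linked reads it was -0.01 (-0.008). That setting leaves replicate 2, the knockout mouse with the highest Ctgf (322.5 CPM), as the only knockout female.

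Between genotypes, therefore, 0 of the 10 genes were called at an adjusted p under 0.05 in edgeR, where 0 of all 13775 genes were called (0 percent). At an unadjusted p under 0.05 there was 1 of the 10, Axl, against 5.08 percent of all genes. DESeq2 called 0 of the 10 (0.123 percent of all genes), with 1 at an unadjusted p under 0.05 (5.13 percent). limma-voom called 0 of the 10 (0.0799 percent), with 1 at that p (7.85 percent). The log2 fold change was below 0 for 7 of the 10 genes and for 51.2 percent of all genes, with a median of -0.02 over the 10 and 0.00 over all genes (-0.003). None of the 10 had groups that did not overlap, which held for 0.0436 percent of all genes. In a whole ventricle, fewer cells of a type and less RNA per cell cannot be told apart. In an exact two-sided permutation of genotypes within each sex (4900 exchanges), Axl gave p = 0.0424 and the other 9 genes gave p from 0.256 (Amotl2) to 0.995 (Cyr61).

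**Figure D2:**
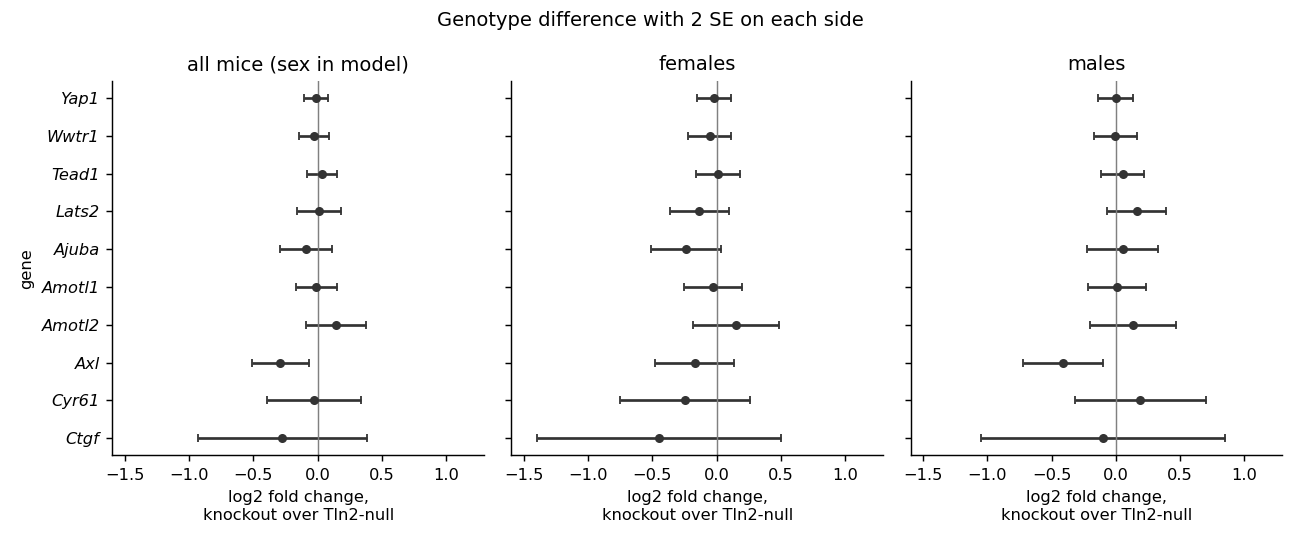
Log2 fold change of each gene, knockout over Tln2-null, from edgeR with 2 SE on each side, in all mice, in females and in males; the vertical line marks no difference. Only Axl, in all mice and in males, has an interval that leaves out 0, and it did not pass after adjustment over all genes.

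Within females, 0 of the 10 genes were called (0 percent of all genes) and 0 had an unadjusted p under 0.05, against 3.31 percent of all genes. Within males 0 were called (0 percent of all genes) and 1 had an unadjusted p under 0.05, against 6.07 percent: Axl, at -0.41 ± 0.16 on the log2 scale (edgeR adjusted p = 0.775). In females Axl stood at -0.17 ± 0.16 (adjusted p = 1), and the test of the difference between the sexes gave 0.24 ± 0.22 (female minus male, adjusted p = 0.98). In males all 10 cardiomyocyte markers were above 0 (median 0.175 on the log2 scale) and all 10 resting fibroblast markers below 0 (median -0.495). In females 7 of the 10 cardiomyocyte markers were below 0 (median -0.032) and all 10 resting fibroblast markers (median -0.346). The activated fibroblast markers, which Axl followed most closely, had nearly the same median in females (-1.267) and in males (-1.261). Their part in the Axl values was not tested. The difference between the sexes in the genotype effect was called for 0 of the 10, and 0 had an unadjusted p under 0.05, against 4.27 percent of all genes. Lats2 had the lowest p of the 10 in that test, at -0.30 ± 0.16 (female minus male, adjusted p = 0.98).

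Females were compared with males in the same fit. Axl averaged 149.9 ± 29.5 CPM in females and 128.5 ± 25.2 CPM in males (SD, n = 8 each). The log2 fold change was 0.23 ± 0.11 (edgeR adjusted p = 1), and 9 of the 10 activated fibroblast markers were also above 0 (median 0.586 on the log2 scale). Wwtr1 averaged 117.1 ± 7.44 CPM in females and 108.8 ± 9.68 CPM in males (0.11 ± 0.06 on the log2 scale, adjusted p = 1). Ctgf averaged 221.1 ± 128.0 CPM in females and 167.9 ± 86.2 CPM in males (0.38 ± 0.33 on the log2 scale, adjusted p = 1). None of the 10 was called (0.0871 percent of all genes were), and 1 had an unadjusted p under 0.05, against 3.69 percent. DESeq2 also called 0 (0.152 percent), with 1 at that p (3.65 percent), and limma-voom 0 (0.0871 percent), with 2 (4.49 percent).

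Levels were compared between genes per kilobase of GENCODE M21 exon length, as a mean ± SD over the 16 libraries. The order was Ctgf (67.99 ± 38.11 CPM per kilobase), Cyr61 (35.5 ± 10.45), Axl (27.66 ± 5.7), Wwtr1 (23.63 ± 1.96), Tead1 (16.94 ± 1.38), Yap1 (16.29 ± 0.88), Amotl2 (14.34 ± 2.44), Amotl1 (14.04 ± 1.51), Lats2 (7.71 ± 0.94) and Ajuba (2.8 ± 0.38). Between neighbours, the ranges were apart only at Amotl1 over Lats2 and at Lats2 over Ajuba. Ctgf exceeded Cyr61, and Wwtr1 exceeded Tead1, in 16 of 16 libraries although their ranges overlapped. The neighbours Cyr61 and Axl, Axl and Wwtr1, and Yap1 and Amotl2 kept their order in 12 of 16 libraries each. Tead1 and Yap1, and Amotl2 and Amotl1, kept theirs in 10 of 16 and did not differ beyond their spread. Wwtr1 ranged from 19.96 to 27.13 and Yap1 from 14.44 to 17.99 CPM per kilobase, so that transcript of TAZ lay above that of YAP, on the assumption that the counted gene models match these exons.

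Mouse-to-mouse spread was lowest in Yap1 and highest in Ctgf among the 10 genes. It was measured as the SD of log2(CPM + 0.5) within genotype and sex, which had a median of 0.178 over all genes. Since low genes vary more, each gene was also set beside the genes within 2-fold of its level. Yap1 had an SD of 0.081, exceeded by 95.7 percent of all genes and by 88.5 percent of those at its level. Wwtr1 (0.115) was exceeded by 81.4 percent of all genes but 62.3 percent at its level, and Tead1 (0.117) by 80.4 and 56.3 percent, close to the middle. Lats2 (0.172), Amotl1 (0.173) and Ajuba (0.184) lay near the median of all genes. At matched level, Lats2 was exceeded by 29.5 percent, Amotl1 by 24.8 percent and Ajuba by 54.9 percent of genes, so Lats2 and Amotl1 varied more than most genes of their level. Axl (0.251) was exceeded by 28.7 percent of all genes and 9.33 percent at its level, and Amotl2 (0.271) by 24.4 and 8.02 percent. Cyr61 had an SD of 0.410, exceeded by 6.76 percent of all genes and by 1.86 percent at its level. Ctgf had an SD of 0.788, exceeded by 0.574 percent of all genes and by 0.294 percent of the 1702 genes within 2-fold of its level. Its counts, 1430 to 6558 per library, carry a counting error of 1.23 to 2.64 percent, against a coefficient of variation of 56 percent over the 16 libraries. The highest library of Ctgf stood 5.20-fold above the lowest, against 1.25-fold for Yap1.

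**Figure D3:**
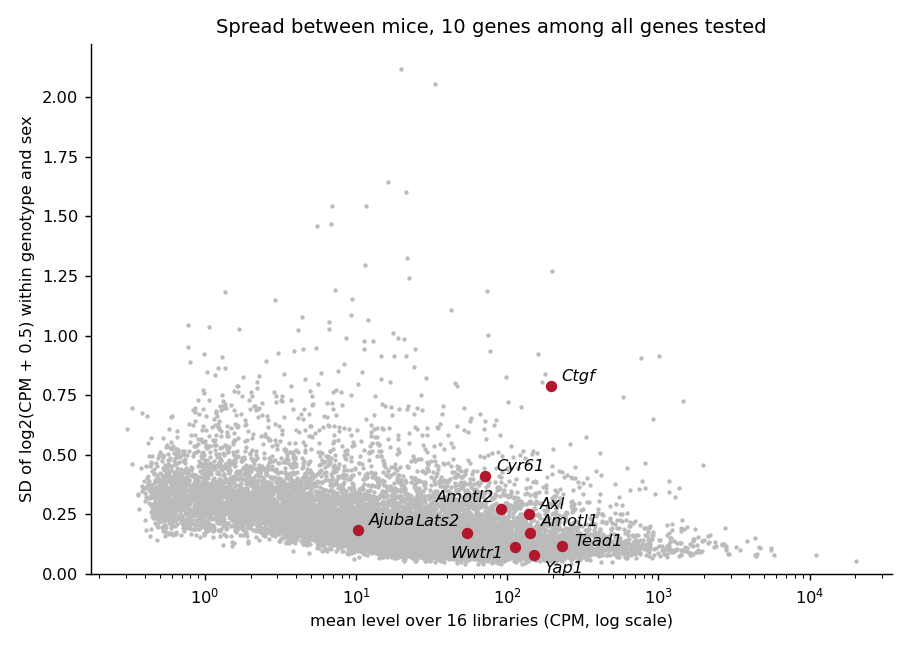
SD of log2(CPM + 0.5) within genotype and sex against mean level (CPM, log scale) for all 13775 genes tested (grey) and the 10 genes (red, named). Ctgf (0.788) and Cyr61 (0.410) lie high for their level, and Yap1 (0.081) lies near the lower edge.

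The high-Ctgf hearts came from both genotypes and both sexes. In order, they were Tln2-null replicate 8 (463.7 CPM, female), Tln2-null replicate 5 (346.1, male), knockout replicate 2 (322.5, female), Tln2-null replicate 6 (280.6, female) and knockout replicate 8 (245.0, male). Of these, 3 stood apart above: both replicates 8 by Arntl, and Tln2-null replicate 5 by Hspa1a. The part of these differences in the Ctgf level was not tested.

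Ctgf and Cyr61 moved together from mouse to mouse. Over the 16 libraries their log2 levels had a Pearson r of 0.79 (permutation p = 0.00019, adjusted p = 0.00855 over 45 pairs) and a Spearman rho of 0.82 (permutation p = 0.00017, adjusted p = 0.00765). The r was 0.72 in the 8 knockout mice, 0.84 in the 8 Tln2-null mice and 0.72 without the 2 libraries farthest from the median of Cyr61. Those 2 libraries are replicate 8 of both genotypes (Cyr61 at 108.7 CPM in the knockout and 127.7 CPM in the Tln2-null group). Without them the pair was no longer called (permutation p = 0.00468, adjusted p = 0.204 over 45 pairs). This test was added after the data were seen.

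The 250 bases before the start of Cyr61 are shown as the promoter of the gene of this pair for which the table has one (chr3:145649986-145650235, minus strand, GRCm38.p6, from RefSeq), with the match in capitals.
Cyr61 upstream: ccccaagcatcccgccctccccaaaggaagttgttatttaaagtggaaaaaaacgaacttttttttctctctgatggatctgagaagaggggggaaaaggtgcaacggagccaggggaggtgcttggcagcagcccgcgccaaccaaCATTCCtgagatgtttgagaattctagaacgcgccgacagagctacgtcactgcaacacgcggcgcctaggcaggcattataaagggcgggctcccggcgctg

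**Figure D4:**
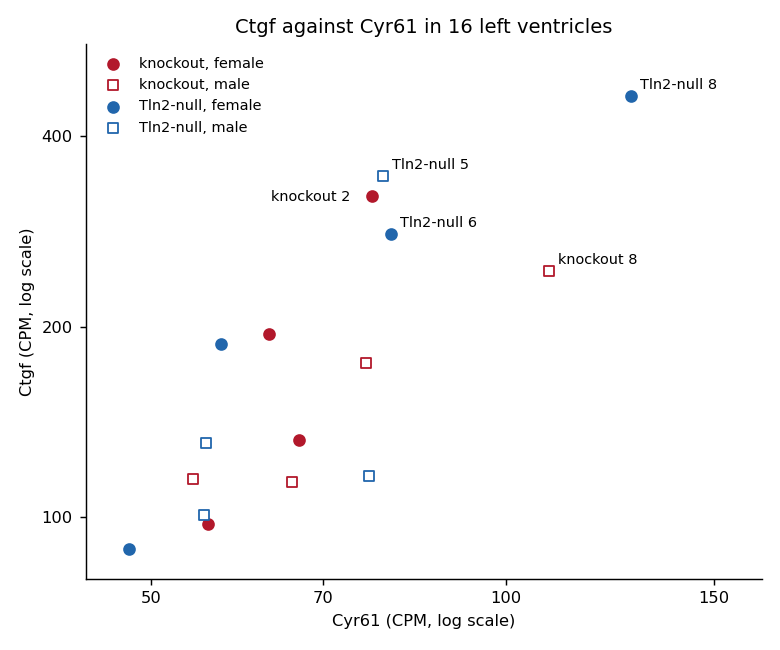
Ctgf against Cyr61 (CPM, both axes on log scales) in each left ventricle, with genotype in colour, females as filled circles and males as open squares; libraries with the 5 highest Ctgf levels are named. Both genotypes run along the same diagonal, with Tln2-null replicate 8 at 127.7 and 463.7 CPM at its upper end.

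Of the 45 pairs among the 10 genes, Ctgf and Cyr61 were the only pair called by Pearson r, with 6 pairs at an unadjusted p under 0.05. Yap1 and Wwtr1 had an r of 0.65 (permutation p = 0.00685, adjusted p = 0.154) and a rho of 0.73 (permutation p = 0.00204, adjusted p = 0.0459), so that this pair passed by rank only; r was 0.72 without the 2 libraries farthest from the median of Yap1. Wwtr1 and Ctgf had an r of 0.57 (permutation p = 0.0222, adjusted p = 0.248) and Yap1 and Ctgf 0.54 (permutation p = 0.0317, adjusted p = 0.248), neither past the threshold. Yap1 and Tead1 had an r of -0.19 (permutation p = 0.488, adjusted p = 0.824). In all, r was above 0 in 30 of the 45 pairs. These pairs share genes and were not set beside pairs of other genes.

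Each gene was also set beside 7 lists (immediate early genes and 6 cell type marker lists), 70 relations in all, each list as the mean log2 level of its genes without the 10 genes. Axl followed the activated fibroblast markers (Postn, Lox, Thbs4 and 7 more) with r = 0.85 (permutation p = 6e-05, adjusted p = 0.0042) and rho = 0.86 (permutation p = 4e-05, adjusted p = 0.0028). The r was 0.76 in knockout mice, 0.86 in Tln2-null mice and 0.79 without the 2 libraries farthest from the median of the markers. The call held without Tln2-null replicate 5, without replicate 8 of both genotypes and in the 12 mice left after dropping females that held Y-linked counts (r from 0.857 to 0.867). Axl also went with resting fibroblast markers (r = 0.78, adjusted p = 0.021; rho = 0.76, adjusted p = 0.0245, permutation tests; r = 0.74 without the 2 farthest libraries). It ran against cardiomyocyte markers (r = -0.75, adjusted p = 0.0222; rho = -0.765, adjusted p = 0.0245, permutation tests; r = -0.82 without the 2 farthest). In those 12 mice r was about as large, 0.774 with resting fibroblast and -0.793 with cardiomyocyte markers, but neither was called (adjusted p = 0.0915 each, permutation tests). The call with cardiomyocyte markers also ended without replicate 8 of both genotypes (r = -0.69, adjusted p = 0.093). With resting fibroblast markers r was 0.58 in knockout and 0.815 in Tln2-null mice, and with cardiomyocyte markers -0.90 in knockout and -0.36 in Tln2-null mice. With macrophage markers, which could also hold Axl transcript, r was 0.31 (permutation p = 0.245, adjusted p = 0.52).

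The fibroblast markers themselves stood lower in the knockout. The summed activated markers ranged from 168.3 to 770 CPM (median 269.2) in knockout and from 220.1 to 979.2 CPM (median 489.4) in Tln2-null ventricles, with 10 of 10 genes below 0 on the log2 scale. The resting list holds genes such as Pdgfra, Tcf21 and Dcn, and also the collagen genes Col1a1, Col1a2 and Col3a1. Whether it marks resting cells alone was not tested. Its summed level ranged from 2101 to 3281 CPM (median 2513) in knockout and from 2621 to 3812 CPM (median 3276) in Tln2-null ventricles. Again 10 of 10 were below 0. edgeR called 0 of these 20 genes (7 activated and 8 resting ones had an unadjusted p under 0.05, against 5.08 percent of all genes), while DESeq2 and limma-voom called 1 resting marker each. No marker of either fibroblast list was at 0 in any library. The part of the fibroblast markers in the Axl difference was not tested. All 10 cardiomyocyte markers were above 0 (median 0.07 on the log2 scale), 5 of 10 endothelial markers above and 5 below (median 0.004), 6 of 10 macrophage markers above (median 0.023) and 7 of 10 pericyte and smooth muscle markers below (median -0.16). Of the sparse lists, 6 lymphocyte, 3 epicardial, 7 glial and 3 atrial markers were tested, with medians of 0.383, 0.03, -0.007 and -0.294.

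**Figure D5:**
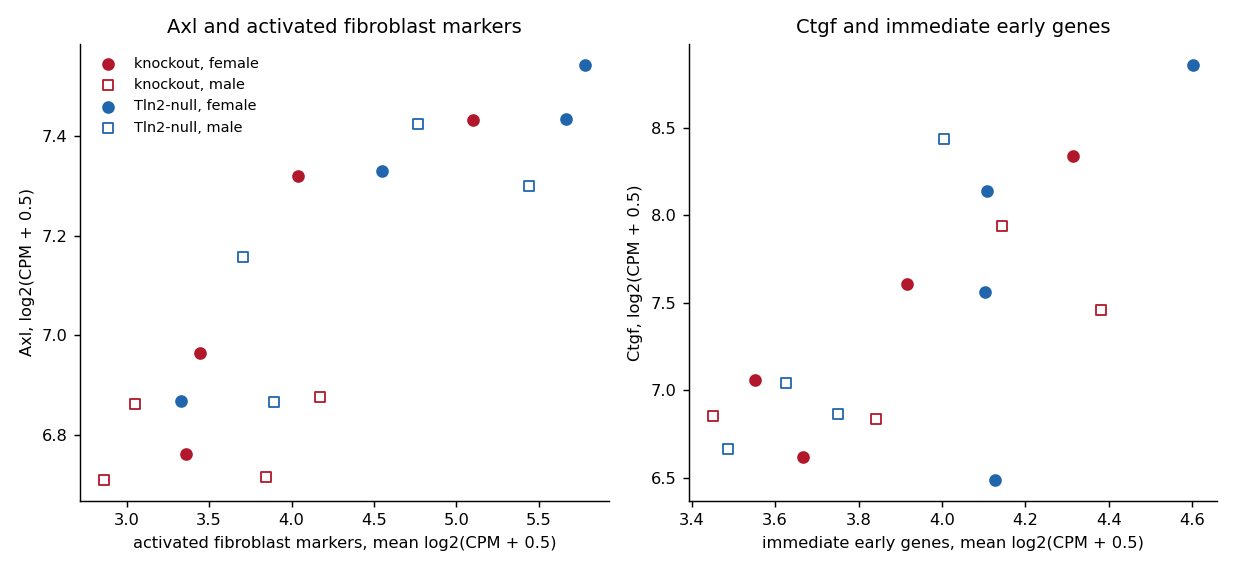
Left, Axl against the mean log2 level of 10 activated fibroblast markers (r = 0.85); right, Ctgf against the mean log2 level of 18 immediate early genes (r = 0.725). Each point is 1 left ventricle, with genotype in colour, females as filled circles and males as open squares; knockout mice lie mostly at the lower left in the Axl panel and along the whole range in the Ctgf panel.

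Ctgf and Lats2 went with immediate early genes, the first genes that cells induce on stimulation (Fos, Egr1, Atf3 and 15 more). For Ctgf r was 0.725 (permutation p = 0.00164, adjusted p = 0.023) and rho 0.59 (permutation p = 0.0164, adjusted p = 0.144), and r was 0.605 without the 2 libraries farthest from the median. For Lats2 r was 0.72 (permutation p = 0.00159, adjusted p = 0.023) and rho 0.67 (permutation p = 0.00503, adjusted p = 0.0704), with r = 0.62 without the 2 farthest. Within genotypes r was 0.78 in knockout and 0.705 in Tln2-null mice for Ctgf, and 0.72 in knockout and 0.73 in Tln2-null mice for Lats2, but neither passed by rank, and both calls ended without replicate 8 of both genotypes (r = 0.6, adjusted p = 0.197, and r = 0.65, adjusted p = 0.131, permutation tests) and without the females that held Y-linked counts (adjusted p = 0.158 each). The summed immediate early genes ranged from 409.2 to 801.8 CPM in knockout and from 456.9 to 734.2 CPM in Tln2-null ventricles. Amotl1 went with endothelial markers (r = 0.695, adjusted p = 0.0365; rho = 0.74, adjusted p = 0.0245, permutation tests; r = 0.61 without the 2 farthest libraries; 0.80 in knockout and 0.52 in Tln2-null mice). That call ended without Tln2-null replicate 5 (r = 0.67, permutation test, adjusted p = 0.0709) and without the females that held Y-linked counts (adjusted p = 0.158). Cyr61 and the immediate early genes had r = 0.645 (permutation p = 0.00595, adjusted p = 0.0595), short of the threshold.

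Among 12009 other genes with a mean of at least 2 CPM, those most like each of the 10 were found by Pearson r over the 16 libraries after subtraction of the mean of each genotype and sex. They were picked as the highest, so their r is a description. For Ctgf they were Thbs1, which encodes the matricellular protein thrombospondin-1 (0.91), the lipopolysaccharide receptor gene Tlr4 (0.87) and Lnx2 (0.86). For Cyr61 they were Asap2 (0.88), the early response gene Btg2 (0.87) and again Thbs1 (0.86). For Axl they were Fbln1, which encodes the matrix glycoprotein fibulin-1 (0.90), the polycystin gene Pkd1 (0.90) and the MAP kinase phosphatase gene Dusp4 (0.89). For Yap1 they were Cttnbp2nl (0.91), the transcription factor gene Klf6 (0.91) and Spty2d1 (0.89). For Wwtr1 they were Chml (0.90), Ap1s2 (0.90) and Gng2 (0.89). For Tead1 they were Psat1, an enzyme gene of serine synthesis (0.86), Golga3 (0.83) and Ttll11 (0.82). For Amotl1 they were Tmem104 (0.97), the volume-regulated anion channel gene Lrrc8a (0.95) and the kinase gene Mink1 (0.93), and for Amotl2 Acot6 (0.89), Sp2 (0.85) and Bcl9 (0.84). For Lats2 they were Supt6 (0.90), Stt3b (0.89) and Fam53c (0.88), and for Ajuba Ess2 (0.82), Rint1 (0.78) and Zfp579 (0.78). None of these 30 places was taken by another of the 10 genes.

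The wider pathway was described from lists of Hippo and target genes, which also hold some of the 10 genes. Of 29 genes of the Hippo cascade and its adaptors, 28 were tested and 0 were called between genotypes, with 13 above 0, 15 below 0 and a median log2 fold change of -0.01 (-0.008; -0.003 over all genes). Of the 28, 4 are among the 10 genes (Lats2, Ajuba, Amotl1 and Amotl2), and of the other 24, 13 were below 0. An unadjusted p under 0.05 was reached by 1 of the 28 in edgeR, 1 in DESeq2 and 3 in limma-voom, near the 5.08, 5.13 and 7.85 percent of all genes. The lowest p was that of Rassf1, which encodes a scaffold of the Hippo kinases, at 19.97 ± 3.23 CPM in knockout and 23.53 ± 2.28 CPM in Tln2-null ventricles (-0.23 ± 0.09, edgeR adjusted p = 0.914). The LIM-domain gene Wtip stood at -0.18 ± 0.11 (adjusted p = 0.935). Of 10 YAP, TAZ, TEAD and Vestigial-like genes, 9 were tested and 0 called (edgeR, DESeq2 and limma-voom, each with 0 at an unadjusted p under 0.05), 8 of them below 0. Of the 9, 3 are among the 10 genes (Yap1, Wwtr1 and Tead1), and the other 6 were all below 0 (median -0.15). Vgll3, which encodes a TEAD cofactor, stood at 3.176 ± 0.864 CPM in knockout and 3.866 ± 1 CPM in Tln2-null ventricles (-0.30 ± 0.18, edgeR adjusted p = 0.935). The sparse Vgll2, at 0.2121 to 2.917 CPM over the 16 libraries, stood at -0.50 ± 0.43. Tead2 stood at -0.13 ± 0.13 and Tead4 at -0.17 ± 0.18.

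Of 23 genes listed as YAP and TAZ targets, which include 6 of the 10 genes, 22 were tested and 0 called. Of these, 15 were below 0 and the median log2 fold change was -0.07 (-0.003 over all genes). Besides Axl, the lowest p were those of Rbms3, which encodes an RNA-binding protein, and the growth factor gene Tgfb2. Rbms3 stood at 9.634 ± 1.82 CPM in knockout and 12.11 ± 1.84 CPM in Tln2-null ventricles (-0.33 ± 0.11), and Tgfb2 at 17.23 ± 2.35 CPM in knockout and 22.43 ± 5.21 CPM in Tln2-null ventricles (-0.38 ± 0.13; edgeR adjusted p = 0.755 for both). The secreted protein gene Ccdc80 stood at -0.35 ± 0.17 (adjusted p = 0.935). Ankrd1, a YAP target abundant in cardiomyocytes, averaged 1876 ± 422 CPM in knockout and 2091 ± 663 CPM in Tln2-null ventricles (-0.16 ± 0.19, adjusted p = 0.951). An unadjusted p under 0.05 was reached by 3 of these genes in edgeR, all lower, and by 4 in DESeq2 and 4 in limma-voom, against 5.08, 5.13 and 7.85 percent of all genes.

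SRF and its cofactor MRTF respond to actin as YAP does and share targets with it. Of their list, 19 genes were tested and 0 called, with 14 below 0 and a median of -0.10 (-0.097; -0.003 over all genes). The lowest p were those of the smooth muscle gene Cnn1 (5.465 ± 1.42 CPM in knockout and 8.366 ± 2.63 CPM in Tln2-null ventricles, -0.64 ± 0.20, edgeR adjusted p = 0.755), the myosin light chain gene Myl9 (-0.37 ± 0.13, adjusted p = 0.799), Tagln (-0.40 ± 0.14, adjusted p = 0.808) and the focal adhesion gene Zyx (-0.23 ± 0.10, adjusted p = 0.935). An unadjusted p under 0.05 was reached by 4 of them in edgeR, 5 in DESeq2 and 4 in limma-voom, against 5.08, 5.13 and 7.85 percent of all genes. Cnn1 and Tagln also stand in the pericyte and smooth muscle list. Its summed level ranged from 1878 to 2235 CPM in knockout and from 1765 to 2471 CPM in Tln2-null ventricles. Rgs5 and Abcc9 weigh most in that sum and stood higher in the knockout. Rgs5 averaged 898.9 CPM in knockout and 821.1 CPM in Tln2-null ventricles, and Abcc9 546.2 and 485.9 CPM. At an unadjusted p under 0.05 in edgeR, 2 genes of the list were higher and 3 lower, with Cnn1 and Tagln among the lower ones and 0 called.

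Of the CCN family, 5 of 6 genes in the table were tested and 0 called. Wisp2, now Ccn5, stood at 6.704 ± 4.13 CPM in knockout and 15.84 ± 11.3 CPM in Tln2-null ventricles (-1.26 ± 0.43, edgeR adjusted p = 0.755). Nov, now Ccn3, stood at 6.189 ± 0.974 CPM in knockout and 5.355 ± 1.73 CPM in Tln2-null ventricles (0.21 ± 0.17, adjusted p = 0.942), and Wisp1, now Ccn4, at 0.06 ± 0.24 (adjusted p = 0.994). Of the 18 immediate early genes 0 were called, with Egr3 at -0.82 ± 0.29 (edgeR adjusted p = 0.808), Atf3 at -1.62 ± 0.65 (adjusted p = 0.917), Fosb at 0.72 ± 0.44 and Junb at -0.23 ± 0.17 (adjusted p = 0.935 and 0.942). Fosb was sparse, at 0.104 to 1.428 CPM over the 16 libraries, where 3 counts stand for about 0.156 to 0.269 CPM. Atf3 stood at 89.6 CPM in Tln2-null replicate 5, against 2.669 to 25.1 CPM in the other 15 libraries.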

How the data were processed

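TRIzol homogenates were column-purified and made into directional libraries (labels' protocols). DRAGEN, DESeq2 and mm10 appear in the submitters' processing notes with no roles or versions. The sources used here do not give the annotation or the strand setting. The authors deposited whole-number counts per gene symbol for each mouse, and these counts were used. A normalized table was not used. In 26 entries the symbol had become a date, and these were kept as they stand. No 2 libraries agreed within sampling noise (120 pairs).

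Tests used the quasi-likelihood method of edgeR 4.0.16 under R 4.3.3 (filterByExpr by genotype and sex, TMM, genotype and sex as terms, or 1 mean per genotype and sex), with Benjamini-Hochberg adjustment over all genes and a threshold of 0.05. SE was taken as log2 fold change (unsigned) divided by √F. The procedure was checked on counts simulated from the edgeR model with the spread of these data, which is no check of that model. CPM are scaled by TMM. Correlations used log2(CPM + 0.5) with two-sided permutation p (100000 resamples), adjusted over all relations of a family. Positions are RefSeq GRCm38.p6, and Cyr61 and Ctgf were matched through their newer names. Intervals of counts cover counting error only.

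Replicate numbers 1 to 8 follow the order of the records. The 10 genes, the 16 gene and marker lists and the tests were chosen with earlier results of these data known. Named genes were the 10, up to 4 genes of lowest p in each list outside the cell type markers, and the 3 most alike genes; Ankrd1, Myh6, Myl2, Arntl, Hspa1a, marker examples and the immediate early genes of the sex comparison were added after their values were seen. Alternatives were DESeq2 size factors, other filters, covariates, DESeq2 1.42.0, limma-voom (limma 3.58.1) with quality weights and left-out libraries.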

Additional observations from a re-analysis of the deposited data

Results flagged for a closer look

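Cyr61 in replicate 8 stood far from the other 7 mice of its genotype, at 108.7 CPM in the knockout and at 127.7 CPM in the Tln2-null group. Of 20 groups checked (10 genes in 2 genotypes) these 2 were marked, and chance marks about 1 group in 20. Both libraries are those with high Arntl.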

How the results depend on the processing

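None of the 10 genes was called between genotypes or sexes in any of the fits run (lowest adjusted p 0.262, Axl without Tln2-null replicate 8). Over all genes, the genotype count was 0, but 1 with no filter, 17 with DESeq2, 11 with limma-voom, 5 without replicate 8 of both genotypes and 0 to 7 without single libraries. DESeq2 called 21 genes between sexes (12 in edgeR) and 2 between genotypes in females (0 in edgeR; 0 to 1 without single libraries). Of the 10 genotype values, 5 close to 0 changed sign. Amotl1 stood at 0.069 with the title number as a covariate, 0.015 with limma-voom and 0.062 when females holding Y-linked counts were dropped. Cyr61 stood at 0.053 with limma-voom, 0.035 without replicate 8 of both genotypes, 0.104 without those females and 0.004 by permutation. Without those females Yap1 stood at 0.030 and Wwtr1 at 0.023. That setting leaves replicate 2 as the only knockout female, the knockout mouse with the highest Axl (172.2 CPM) and Ctgf (322.5 CPM). Without single libraries the values ran from -0.027 to 0.020 for Yap1, -0.071 to 0.001 for Wwtr1, -0.025 to 0.066 for Lats2, -0.038 to 0.031 for Amotl1 and -0.144 to 0.145 for Cyr61. Axl ran from -0.357 to -0.244 without single libraries, with an unadjusted p of 0.0833 without those females (edgeR). Pairs called were 0 of 45 without replicate 8 of both genotypes (1 in all mice). Marker relations called were 3 of 70 without them and 1 without females that held Y-linked counts (6 in all mice), both added after the data were seen. The causes were not tested. Depth limits Ajuba most. No paired analysis was possible because the labels give no replicate number shared by the genotypes.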

Other observations

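Genotype differences of immediate early genes, the first genes induced when cells are stimulated, were tallied by sex. In females 16 of 18 were below 0 (median log2 fold change -0.24, against 0 over all genes), and in males 12 of 18 were above 0 (median 0.13, against -0.006 over all genes). The test of the difference between the sexes called 0 of the 18 in edgeR, and 7 had an unadjusted p under 0.05, against 4.27 percent of all genes. Without Tln2-null replicate 8, a female that stood apart by Arntl and had the highest mean level of these genes, 4 of the 18 had such a p, against 2.29 percent of all genes. Without replicate 8 of both genotypes it was 2 of 17, against 2.24 percent. Fos stood at -0.65 ± 0.53 in females and 1.33 ± 0.58 in males, and Jun at -0.44 ± 0.21 in females and 0.43 ± 0.21 in males (adjusted p of the difference = 0.98 for both), whereas Egr3, Atf3, Junb, Ier2 and Fosl2 were below 0 in both sexes. All 10 cardiomyocyte markers were also below 0 in that test (female minus male, median -0.204; 2 at an unadjusted p under 0.05, and 0 without Tln2-null replicate 8). Among the 28 tested genes of the Hippo cascade, 20 were below 0 in it (median -0.082, against 0.005 over all genes). Of these 28, 4 are among the 10 genes. In edgeR 0 were called and 1 had an unadjusted p under 0.05, against 4.27 percent of all genes. The share of all genes below 0 in this test was not counted.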
